A study of Mus musculus with 8 samples.

Results

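The nuclear genes that encode subunits of the mitochondrial respiratory chain and of the ATP synthase were followed in leukemia cells from mice given the DHODH inhibitor AG636. Members were the protein-coding genes whose symbols begin with Nduf followed by a subunit letter and number, Sdha to Sdhd, and those beginning with Uqcr, Cox4 to Cox8 or Atp5, with assembly factors left out. The rule took 85 of the 54838 genes of the table, namely 35 of complex I, 4 of complex II, 8 of complex III, 20 of complex IV and 18 of complex V. These rows stand for 84 symbols, because Atp5o has a second gene model, a readthrough transcript with 0 counts.

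The cells were AML cells of genotype RUNX1-RUNX1T1 (the core-binding factor fusion also called AML1-ETO) on a C57BL/6 background. They came from an established tumor that was re-transplanted into mice carrying Ptprca, which the labels describe as irradiated below the lethal dose, so that all samples derive from 1 leukemia. The study's methods give irradiation before transplant only for its other leukemia models (MN and I1DN), so that it is uncertain for these recipients. Recipients received vehicle (4 samples) or AG636 at 100 mg/kg by oral gavage b.i.d. (4 samples), the study's legend gives 1 day of treatment, and cells with high cKit and no CD11b were sorted. The labels name bone marrow and spleen but not the tissue of each sample, and they do not say that the samples of a group are separate mice. The legend gives fewer mice per group than there are samples, so that the SDs and p-values may rest on fewer than 4 independent mice.

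Electrons enter the chain at complex I, which oxidizes NADH, and at complex II, which oxidizes succinate, and both pass them to ubiquinone. Complex III hands them on to cytochrome c and complex IV to oxygen, while complex V uses the resulting proton gradient to make ATP. DHODH, the enzyme of pyrimidine synthesis that AG636 inhibits, sits in the same inner membrane and also gives its electrons to ubiquinone. Complexes I, III, IV and V are built from nuclear and mitochondrially encoded subunits, whereas complex II is entirely nuclear. A core set of subunits carries the flavins, iron-sulfur clusters and hemes, and many small accessory subunits surround it.

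AG636 samples held less transcript for a minority of the subunits, spread over all 5 complexes. Of the 78 subunit genes with enough counts to be tested, 12 fell and 0 rose (limma-voom, adjusted p under 0.05). The 12 were Ndufa5, Ndufb7, Ndufc2 and Ndufs6 of complex I, Sdhd of complex II, Uqcr11 of complex III, Cox5b and Cox7b of complex IV, and Atp5e, Atp5g3, Atp5j and Atp5j2 of complex V. Sdhd had the lowest log2 fold change, at -1.08, and the other 11 lay between -0.60 and -0.34. None of the nuclear core subunits of complex I and neither catalytic subunit of complex II passed the threshold in either direction (limma-voom), and at an unadjusted p under 0.05 these genes also gave 0 calls. Over all genes tested, 8.49% fell and 5.47% rose, and at that unadjusted p 17.0% were lower and 13.7% higher. Whether these few genes differ from the other subunits was not tested.

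These counts have to be read against the rest of the transcriptome. Of 10911 genes tested, 926 fell (8.49%) and 597 rose (5.47%), and 12 of 78 subunits is 15.4%. Genes expressed at a similar level were called more often. Among the 3213 genes whose mean log2 CPM was 6 or more, a level chosen after the data were seen, 15.1% fell and 6.41% rose, and 11 of the 70 subunits at that level fell, which is 15.7%. The share of subunits that fell was thus near the background of equally expressed genes. With library size as the only scaling the split of all genes turned to 571 lower and 918 higher, and 7 subunits were lower and 2 higher (Cox6b2 and Ndufa7). By edgeR 12 subunits fell (8.41% of all genes) and Cox6b2 rose (6.36%), and by DESeq2 13 fell (9.69%) and Ndufa7 rose (9.03%). Cox6b2 passed the filter on low counts through the AG636 samples alone, so that its calls in these fits are not read as a result.

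Levels are given as CPM, the counts per 1000000 counts of the TMM-scaled library size. The QuantSeq kit reads 1 tag at the 3′ end of each transcript, so that CPM was not divided by transcript length. Libraries held 6120030 to 7162036 counts, and the subunits together took 1.65 to 2.10% of them. A count of 3, used as the floor, corresponds to 0.434 to 0.479 CPM. Kit, which the sort selected for, was at 153 to 252 CPM and Itgam, the gene of CD11b, at 0 to 0.615 CPM. Ptprc, the gene of CD45, was at 2.01 to 9.25 CPM and the myeloid gene Mpo at 0.467 to 4.77 CPM, low values for cells labeled as AML, whereas the 8 erythroid markers summed to 2461 to 6227 CPM in Vehicle and 4820 to 6295 CPM in AG636 samples. One of these 8, Hbb-bt, rose (log2 fold change 0.90, adjusted p = 0.0238). Granulocyte markers summed to 44.1 to 104 CPM in Vehicle and 14.3 to 205 CPM in AG636 samples. Mast cell and basophil markers were at 37.3 to 102 CPM in Vehicle and 44.8 to 312 CPM in AG636 samples. B cell markers reached at most 22.5 CPM, with 1 of 6, Cd79a, higher in AG636 (adjusted p = 0.0266). T and NK cell markers reached at most 20.6 CPM and macrophage markers 12.6 CPM, and none of the granulocyte, mast cell, T cell or macrophage markers passed the threshold. In bulk samples, fewer cells of a type and less RNA per cell cannot be told apart, and the part of these markers in the results was not tested.

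By some of these markers, a pair of libraries stood apart. Vehicle 4 had the lowest sum of erythroid markers, and AG636 3 had the highest sum of mast cell and basophil markers and the highest Cd34 level, at 35.6 CPM beside 2.43 to 12.6 CPM in the other samples. Without both, 5 subunits fell in place of 12, namely Ndufb7, Ndufs6, Sdhd, Uqcr11 and Atp5g3, while 798 of all genes fell in place of 926. The drop was not particular to this pair. Without Vehicle 4 alone 5 fell, without AG636 3 alone 12, and without Vehicle 3, not set apart here, 4. Other markers set other samples apart. Granulocyte markers summed to 163 and 205 CPM in AG636 2 and 4, beside 14.3 and 19.5 CPM in AG636 1 and 3.

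**Figure D1:**
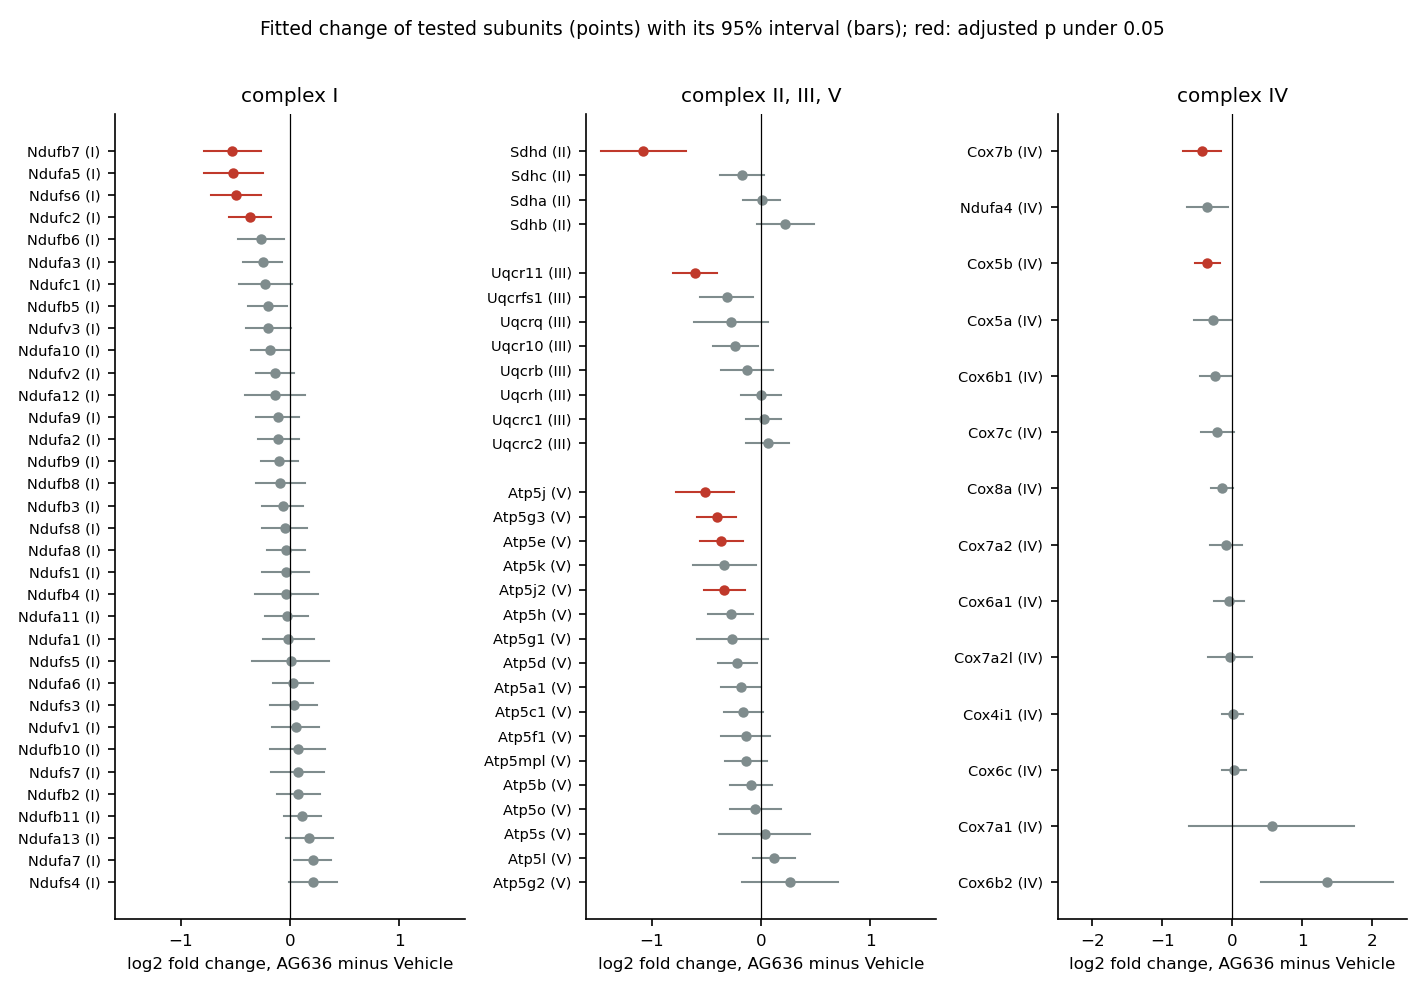
Fitted log2 fold change (AG636 minus Vehicle, x axis) of tested subunits with the 95% interval, listed by complex in 3 panels (complex IV on a wider axis), with the 12 that passed the threshold in red. Most points lie left of 0, with Sdhd at -1.08, and the 2 points farthest to the right, Cox6b2 and Cox7a1, have the widest intervals.

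Of the 78 tested subunits, 54 had a log2 fold change below 0 and 24 above. Over all genes the share below 0 was 50.6%, and among those at a mean log2 CPM of 6 or more it was 58.3%. The median over subunits was -0.11, beside -0.0056 over all genes. For the 70 subunits at the higher level it was -0.14, with 52 below 0, beside -0.055 over the genes at that level. The median over subunits was -0.07 without Vehicle 4 and -0.04 without both Vehicle 4 and AG636 3. With library size alone these medians were -0.04 for the subunits and 0.06 for all genes. At an unadjusted p under 0.05, 25 subunits were lower (17.0% of all genes) and 2 were higher (13.7% of all genes). At the higher level, 24 of 70 subunits were lower and 1 was higher, beside 853 and 439 of the 3213 genes. The groups did not overlap in 20 subunits that were lower in AG636 (12.9% of all genes, 21.6% at the higher level) and in 2 that were higher (9.35%). These 2 were Ndufa7 and Cox6b2, and Cox6b2 passed the filter on low counts through the AG636 samples alone. Summed over the members, subunit transcripts came to 19847 ± 1033 CPM in Vehicle and 17775 ± 789 CPM in AG636 samples (SD, n = 4 each). The ratio of these means was 0.896, beside 0.953 for the sum over all genes tested and 0.943 at the higher level. As a share of all counts, subunits took 1.82 to 2.10% in Vehicle and 1.65 to 1.92% in AG636 libraries, which overlapped.

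Promoters of the members were examined in RefSeq sequence of build GRCm38.p6, from 250 bases before to 50 after each annotated start. Of the 84 symbols, 68 had an entry. Those without one included Atp5a1, Atp5mpl, Cox4i1, Cox4i2, Cox6a2, Cox6c, Cox8c, Ndufa2, Ndufa4l2, Ndufb9, Ndufs1, Sdhc, Uqcrb, Uqcrc2 and Uqcrq. The 4 promoters printed here belong to the members that fell under each of the 19 other fits run at the same threshold. Each is printed 5′ to 3′ from 120 bases before to 30 after the start, with matches to the motif of NRF1 (GCGCNTGCG, for nuclear respiratory factor 1) and of ETS factors such as GABPA (CCGGAAG) in capitals, on either strand.
Sdhd, chr9:50603820-50603969, minus strand: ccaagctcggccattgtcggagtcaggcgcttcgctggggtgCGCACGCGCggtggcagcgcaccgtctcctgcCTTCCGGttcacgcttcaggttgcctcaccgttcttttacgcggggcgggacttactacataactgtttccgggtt
Uqcr11, chr10:80406792-80406941, minus strand: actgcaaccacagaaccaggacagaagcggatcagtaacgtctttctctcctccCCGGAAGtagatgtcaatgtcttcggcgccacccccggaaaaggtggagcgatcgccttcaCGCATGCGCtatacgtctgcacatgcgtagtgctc
Ndufs6, chr13:73328453-73328602, minus strand: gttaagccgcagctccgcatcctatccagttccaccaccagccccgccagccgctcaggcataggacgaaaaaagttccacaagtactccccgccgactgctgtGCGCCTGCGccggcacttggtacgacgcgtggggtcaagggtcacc
Atp5g3, chr2:73911297-73911446, minus strand: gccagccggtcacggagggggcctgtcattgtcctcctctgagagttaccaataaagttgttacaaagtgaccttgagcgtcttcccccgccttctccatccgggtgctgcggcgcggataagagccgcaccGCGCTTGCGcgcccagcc
All 4 windows hold an NRF1 match, and those of Sdhd and Uqcr11 also hold an ETS match. They were chosen for their calls, so that this is a description of these promoters only.

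The NRF1 motif was present in 23 of the 68 matched members (33.8%) and in 7.1% of all 27025 genes with a promoter entry. The ETS motif stood in 16 members (23.5%, against 9.9% of all genes). The motif of YY1 (AANATGGC), a zinc finger factor, stood in 17 of the 68 members and in 7.0% of all genes. The SP1 motif GGGCGG was found in 41.2% of members and 38.2% of all genes, and the E-box CACGTG in 8.8% and 8.1%. YY1 matches lay mostly in complex I, with 12 of its 31 matched genes, 4 of 15 in complex V and 1 of 14 in complex IV. Both strands were searched, matches of different motifs may overlap, and genes with several starts count as holding a motif when any start does.

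Members that fell stood on both sides of each motif split. Among tested members with an NRF1 match, 5 of 23 fell, and among those without, 7 of 43. The counts were 4 of 17 with and 8 of 49 without a YY1 match, and 5 of 16 with and 7 of 50 without an ETS match. Median log2 fold changes were -0.05 with and -0.14 without an NRF1 match, -0.11 and -0.14 for YY1, and -0.26 and -0.09 for ETS. A match is a run of letters and not a bound site, and no difference between these groups was tested.

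Complex I had 35 tested members, of which 4 fell (11.4%, beside 8.49% of all genes and 15.1% at the higher level), with a median log2 fold change of -0.05. The count was 1 without Vehicle 3 and 2 without Vehicle 4. Its nuclear core subunits carry the flavin and the iron-sulfur clusters that lead from NADH to ubiquinone. Those described here had log2 fold changes from -0.14 to 0.07. Ndufv1, which binds NADH and FMN, stood at 134, 142, 127 and 145 CPM in Vehicle samples 1 to 4 and at 137, 168, 127 and 139 CPM in AG636 samples 1 to 4. The groups overlapped, and the 95% interval of its log2 fold change reached from -0.17 to 0.27.

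Ndufs7, which holds the last iron-sulfur cluster before ubiquinone, had an interval of -0.17 to 0.32. For Ndufs1, the largest core subunit, it was -0.25 to 0.18, for Ndufs3 -0.19 to 0.25 and for Ndufs8 -0.25 to 0.15. Ndufv2, the iron-sulfur subunit beside Ndufv1, had the lowest value of the core, -0.14 (interval -0.31 to 0.04). Ndufs1 shares exon sequence with Eef1b2 on the opposite strand, which had 65981 counts beside its 5254 over all samples, and whether the counting used strand is not given in the sources used here.

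Among the 28 accessory subunits of complex I, 4 fell (14.3%, beside 8.49% of all genes and 15.1% at the higher level). None rose, where 5.47% of all genes did. Ndufs6 (chr13:73319838-73328542), a zinc-binding subunit of the NADH-oxidizing module (coordinates of genes are those of the deposited table, build GRCm38), was at 153, 159, 172 and 201 CPM in Vehicle samples 1 to 4 and at 136, 121, 111 and 117 CPM in AG636 samples 1 to 4. Every AG636 sample was below every Vehicle sample, and the log2 fold change was -0.49 ± 0.10 (SE, adjusted p = 0.0128). Exons of Ndufs6 overlap Mrpl36 on the opposite strand, which had 4151 counts beside 7659 for Ndufs6.

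Ndufa5 (chr6:24518666-24528013), of the ubiquinone module, was at 159, 147, 171 and 194 CPM in Vehicle and 123, 94.5, 116 and 134 CPM in AG636 samples. The groups did not overlap, and the log2 fold change was -0.52 ± 0.12 (adjusted p = 0.0192). Both Ndufs6 and Ndufa5 sit in the matrix arm, near core subunits that did not pass the threshold.

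Ndufb7 (chr8:83566671-83571626), which faces the intermembrane space, was at 129, 138, 139 and 148 CPM in Vehicle and 103, 74.7, 109.8 and 100.0 CPM in AG636 samples. AG636 2 was lowest, the groups did not overlap, and the log2 fold change was -0.53 ± 0.12 (adjusted p = 0.0154). Ndufc2 (chr7:97400003-97407802), of the membrane arm, was at 354, 326, 350.0 and 369 CPM in Vehicle and 307, 246, 270.2 and 265 CPM in AG636 samples. Its log2 fold change was -0.37 ± 0.09 (adjusted p = 0.0202), again with no overlap.

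The 24 other accessory subunits had log2 fold changes between -0.27 and 0.21. Ndufb6 was the lowest of them, at 106 ± 10.9 CPM in Vehicle and 87.8 ± 6.40 CPM in AG636 samples (SD, n = 4 each, log2 fold change -0.27, limma-voom adjusted p = 0.0893). Ndufs4 and Ndufa7, of the matrix arm, had the highest values, both at 0.21 (adjusted p = 0.187 and 0.0956), and the groups of Ndufa7 did not overlap, with 149.7 to 156 CPM in Vehicle and 162 to 190.4 CPM in AG636 samples. Ndufa7 passed the threshold by DESeq2 and with library size alone. By level, complex I ran from Ndufb4, at 33.4 ± 1.78 and 32.9 ± 6.16 CPM in Vehicle and AG636 samples, to Ndufa6, a LYR-motif subunit, at 321 ± 23.2 and 326 ± 22.3 CPM. Ndufb1-ps, left out because it is annotated as a non-coding RNA, was at 246 ± 20.5 CPM in Vehicle and 218 ± 27.1 CPM in AG636 samples (log2 fold change -0.18, limma-voom adjusted p = 0.281).

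**Figure D2:**
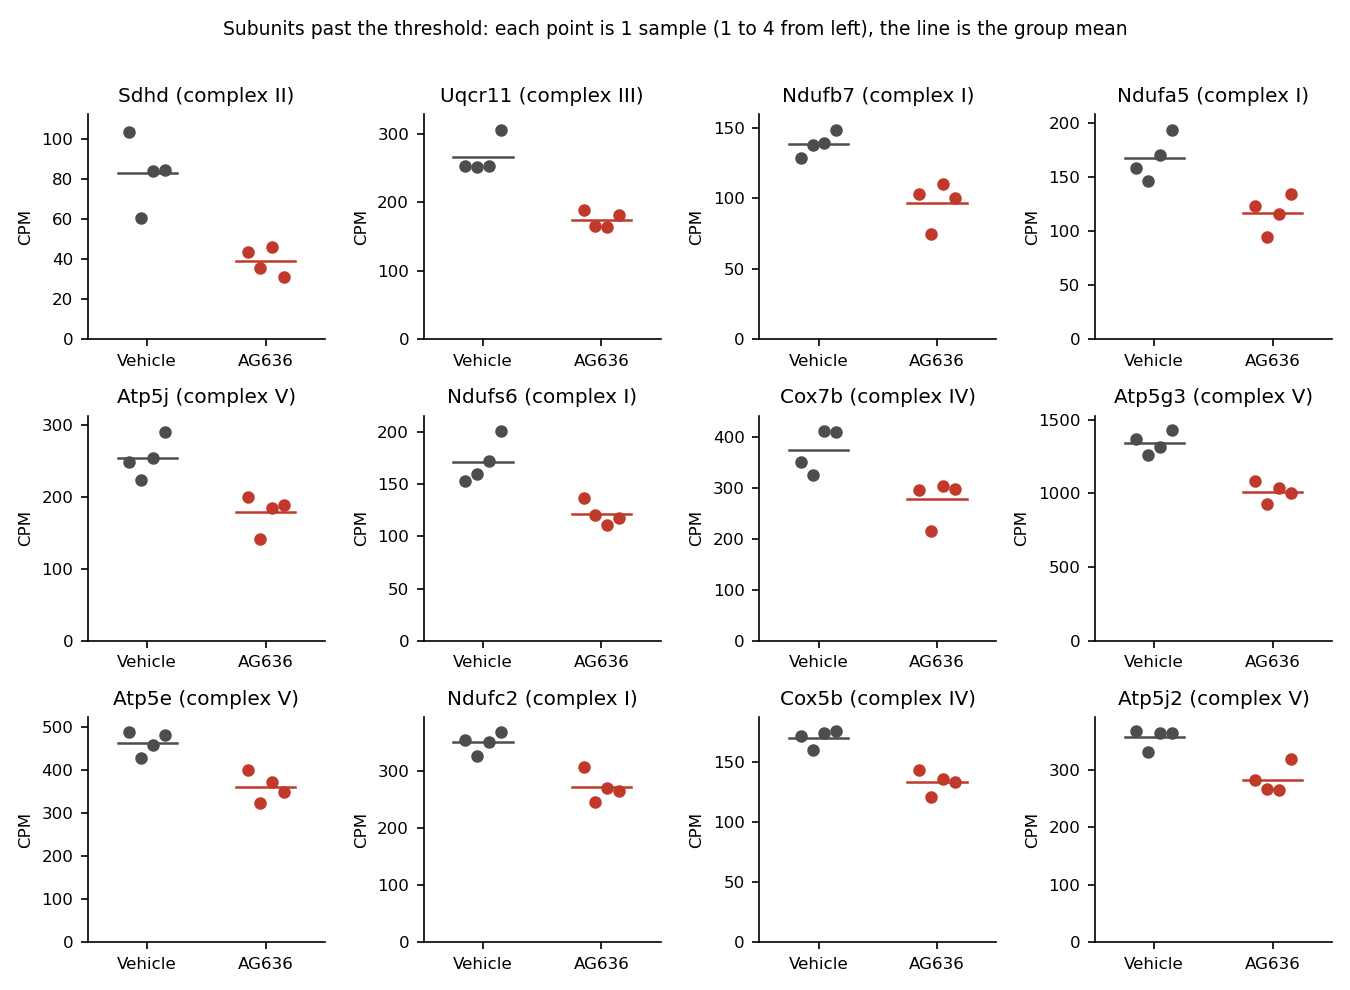
CPM (y axis, from 0) of the 12 subunits that fell, 1 panel each, with 1 point per sample in replicate order and a line at the mean of each group. In all 12 panels every AG636 point lies below every Vehicle point.

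In complex II, 1 of 4 genes fell (8.49% of all genes, 15.1% at the higher level), while the other 3 had log2 fold changes of -0.18 to 0.22. The gene that fell, Sdhd, had a mean log2 CPM of 5.82 and so lay below the higher level. Sdhd (chr9:50596357-50603812), a membrane anchor that with Sdhc holds the heme and the ubiquinone site, was at 103, 60.7, 83.9 and 84.3 CPM in Vehicle and 43.7, 35.8, 46.3 and 31.2 CPM in AG636 samples. All 4 AG636 samples were below all 4 Vehicle samples, with means of 83.1 ± 17.5 and 39.2 ± 6.97 CPM (SD, n = 4 each), and the log2 fold change was -1.08 ± 0.18 (adjusted p = 0.00466). It was also the lowest of the 4 genes in level.

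The catalytic subunits did not share this. Sdha, the flavoprotein that oxidizes succinate, was at 204, 221, 228 and 239 CPM in Vehicle and 215, 234, 219 and 225 CPM in AG636 samples, with an interval of -0.17 to 0.18 for the log2 fold change. Sdhb, the iron-sulfur subunit, was at 159, 174, 177 and 227 CPM in Vehicle and 229, 186, 208 and 232 CPM in AG636 samples (log2 fold change 0.22, interval -0.04 to 0.48, adjusted p = 0.229). The second anchor, Sdhc, was at 178 ± 11.2 CPM in Vehicle and 158 ± 14.6 CPM in AG636 samples (log2 fold change -0.18, limma-voom adjusted p = 0.211). The intervals of Sdha, Sdhb and Sdhc did not reach that of Sdhd, -1.46 to -0.69, but differences between genes were not tested.

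Of the 8 subunits of complex III, 1 fell (12.5%, beside 8.49% of all genes and 15.1% at the higher level). Uqcr11 (chr10:80402997-80406830), a small accessory subunit added late in assembly, was at 253, 252, 253 and 306 CPM in Vehicle and 188, 166, 164 and 181 CPM in AG636 samples. The groups did not overlap, and the log2 fold change was -0.60 ± 0.09 (adjusted p = 0.00387, the smallest among the members). The processed pseudogenes Gm11628 and Gm16418, near-identical to its 3′ end, had 12 counts in all beside 11547 for Uqcr11.

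Uqcrfs1, the Rieske iron-sulfur protein that takes electrons from ubiquinol, was at 213, 170.4, 201 and 207 CPM in Vehicle and 172, 158, 175 and 132 CPM in AG636 samples. Vehicle 2 lay within the range of the AG636 samples, and the log2 fold change of -0.32 did not pass the threshold (adjusted p = 0.0805). The core proteins Uqcrc1 and Uqcrc2 had log2 fold changes of 0.02 and 0.06, and the hinge protein Uqcrh, the highest of the complex at 482 ± 18.5 and 483 ± 42.3 CPM in Vehicle and AG636 samples, had 0.00 (interval -0.18 to 0.18). Uqcrb, the lowest, had -0.13, and the small subunits Uqcrq and Uqcr10 had -0.28 and -0.24 (adjusted p = 0.251 and 0.11).

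Complex IV had 14 tested members, of which 2 fell (14.3%, beside 8.49% of all genes and 15.1% at the higher level). Without Vehicle 1, without Vehicle 3 or without Vehicle 4, 0 fell (limma-voom). Cox5b (chr1:36691449-36693681), a zinc-binding subunit on the matrix side, was at 171, 160.0, 174 and 176 CPM in Vehicle and 144, 121, 136 and 133 CPM in AG636 samples (log2 fold change -0.36 ± 0.08, adjusted p = 0.017). Cox7b (chrX:106015700-106022450) was at 352, 326, 411 and 410.0 CPM in Vehicle and 296, 216, 305 and 297 CPM in AG636 samples (log2 fold change -0.43 ± 0.13, adjusted p = 0.0436). Neither pair of groups overlapped. Cox7b was the least secure of the 12 calls, passing the threshold in 8 of 19 other fits and in 1 of the 8 fits that left out a sample.

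Several subunits of complex IV have tissue isoforms, and in these cells the general isoform made up nearly all of the transcripts. Cox4i1, the general isoform of subunit 4, was at 408, 400.4, 416 and 394 CPM in Vehicle and 401, 413, 412 and 405 CPM in AG636 samples, whereas its lung isoform Cox4i2 had at most 1 count in a library. Cox6a1 was at 489 ± 55.1 and 471 ± 35.3 CPM in Vehicle and AG636 samples, beside at most 5 counts for the muscle isoform Cox6a2. Cox8a, the highest of the complex, was at 646 ± 20.4 and 584 ± 18.2 CPM, its groups did not overlap, and its log2 fold change was -0.14 (adjusted p = 0.196). The other isoforms of subunit 8, Cox8b and Cox8c, the testis isoform Cox7b2 and the hypoxia-induced Ndufa4l2 had 0 counts in all 8 libraries, below 0.434 to 0.479 CPM at this depth. Of the muscle markers, Myh6 was likewise at 0, and Ckm and Acta1 reached at most 0.622 CPM.

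A pair of tissue isoforms was detected at a low level. Cox6b2, the testis isoform of subunit 6b, was at 1.46, 0.922, 1.08 and 0.456 CPM in Vehicle and 1.56, 3.67, 2.07 and 3.04 CPM in AG636 samples, which did not overlap. Its log2 fold change of 1.36 ± 0.43 had an adjusted p of 0.0587. It held 3 to 10 counts in Vehicle and 10 to 23 counts in AG636 libraries, so that it passed the filter on low counts through the AG636 samples alone, and a filter of 10 counts in every sample removes it. It passed the threshold by edgeR (adjusted p = 0.0467), with library size alone (0.0474) and without AG636 1 (0.0481). Cox6b1, the general isoform, was at 405 ± 25.7 CPM in Vehicle and 344 ± 42.1 CPM in AG636 samples (log2 fold change -0.24, adjusted p = 0.13). The muscle isoform Cox7a1 was at 1.39 to 4.56 CPM in Vehicle and 1.12 to 5.91 CPM in AG636 samples, beside 490.0 ± 40.0 and 463 ± 55.0 CPM for Cox7a2. Ndufa4, first assigned to complex I, was at 174, 157, 172 and 196 CPM in Vehicle and 159, 104, 154 and 133 CPM in AG636 samples (log2 fold change -0.36, adjusted p = 0.0943).

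In complex V, 4 of 17 tested members fell (23.5%, beside 8.49% of all genes and 15.1% at the higher level). This count was 1 without Vehicle 1, without Vehicle 3 or without Vehicle 4. Of the 17 log2 fold changes 14 were below 0 (50.6% of all genes and 58.3% at the higher level), with a median of -0.18. Its summed transcripts came to 6844 ± 442 CPM in Vehicle and 5799.8 ± 306 CPM in AG636 samples, a ratio of 0.847 beside 0.953 over all genes tested. Atp5g3 (chr2:73908447-73911326), which had the highest mean level of all 85 members, encodes subunit c, the protein of the rotating ring in the membrane. It was at 1370.2, 1260.4, 1313 and 1428 CPM in Vehicle and 1080.2, 929, 1039 and 1000.1 CPM in AG636 samples. No AG636 sample reached the lowest Vehicle sample, and the log2 fold change was -0.41 ± 0.08 (adjusted p = 0.0102).

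Subunit c is encoded by 3 genes that give the same mature protein. Atp5g1 was at 137, 138, 140.0 and 197 CPM in Vehicle and 118, 123, 107 and 159 CPM in AG636 samples, and AG636 4 lay above 3 of the Vehicle samples (log2 fold change -0.26, adjusted p = 0.254). Atp5g2 was the lowest tested gene of the complex, at 5.77 ± 0.877 and 6.94 ± 0.952 CPM in Vehicle and AG636 samples (log2 fold change 0.26, limma-voom adjusted p = 0.402). Together the 3 genes came to 1501 ± 97.2 CPM in Vehicle and 1146 ± 61.7 CPM in AG636 samples, most of it from Atp5g3.

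In the F1 part, where ATP is made, Atp5e (chr2:174461072-174464105), the epsilon subunit of the central stalk, was at 488, 426, 457 and 481 CPM in Vehicle and 399.8, 322, 371 and 347 CPM in AG636 samples. Its log2 fold change was -0.37 ± 0.09 (adjusted p = 0.0222) with no overlap. The other stalk subunits did not pass the threshold, with Atp5d at -0.22 (adjusted p = 0.0973) and Atp5c1 at -0.16 (0.193), nor did the head subunits Atp5a1 at -0.18 (0.16) and Atp5b at -0.09 (0.52).

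The peripheral stalk holds the head in place. Atp5j (chr16:84827866-84835625), coupling factor 6, was at 248, 224, 254 and 290.0 CPM in Vehicle and 199.5, 141, 184 and 189 CPM in AG636 samples (log2 fold change -0.52 ± 0.12, adjusted p = 0.0187). The groups did not overlap. Exons of Atp5j overlap those of Gabpa on the opposite strand, which had 1458 counts beside 11335. The other stalk subunits had log2 fold changes of -0.28 (Atp5h, adjusted p = 0.0706), -0.14 (Atp5f1, 0.38) and -0.05 (Atp5o, 0.77).

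Of the small membrane subunits, Atp5j2 (chr5:145183698-145192062), subunit f, was at 367, 331, 363 and 363 CPM in Vehicle and 283, 266, 265 and 318 CPM in AG636 samples (log2 fold change -0.34 ± 0.08, adjusted p = 0.0255), with AG636 4 just below Vehicle 2. Atp5k, subunit e, which sits where 2 synthases meet, had the same log2 fold change of -0.34 but wider groups, from 385 to 514 CPM in Vehicle and from 269.6 to 404 CPM in AG636 samples, and did not pass the threshold (adjusted p = 0.11). Atp5l, subunit g at the same contact, had 0.12 (adjusted p = 0.386). Usmg5, a small synthase subunit whose symbol falls outside the rule, was at 309.6 ± 30.1 and 238 ± 35.9 CPM (log2 fold change -0.38, limma-voom adjusted p = 0.0528), and the inhibitor Atpif1 was at 1513 ± 54.1 and 1527 ± 213 CPM (adjusted p = 0.987).

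**Figure D3:**
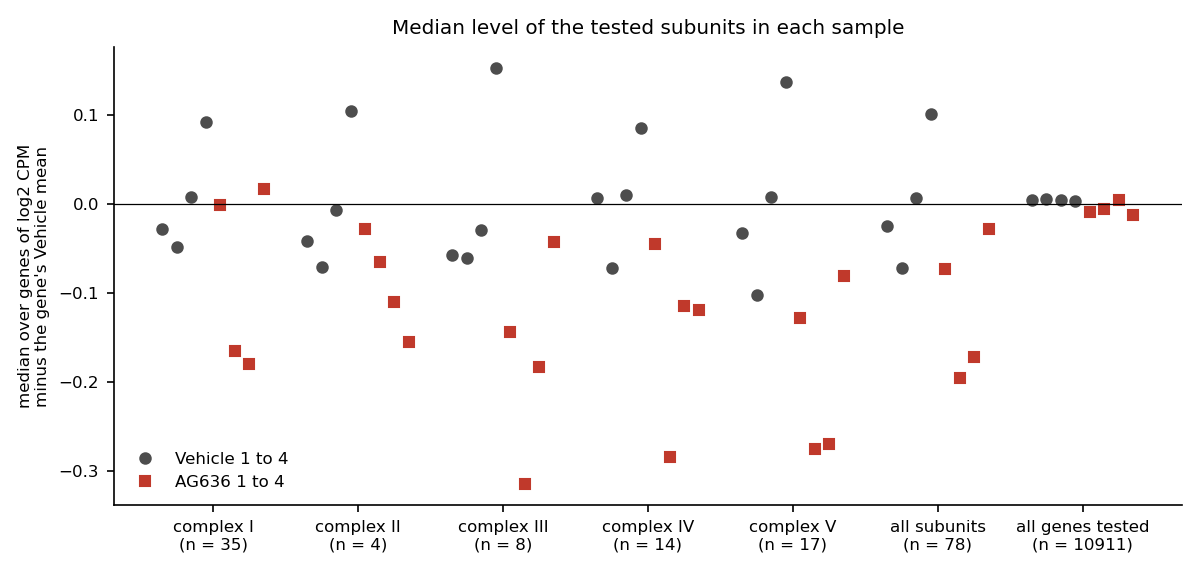
Median over the tested subunits of a complex, over all 78 and over all 10911 genes, of log2 CPM minus the gene's Vehicle mean (y axis), for each of the 8 samples. Vehicle 4 is the highest sample in every complex, and AG636 1 and 4 lie within the range of the Vehicle samples in complex I.

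The shift was uneven over the samples. Relative to the Vehicle mean of each gene, the median subunit was at -0.03, -0.07, 0.01 and 0.10 on the log2 scale in Vehicle samples 1 to 4 and at -0.07, -0.20, -0.17 and -0.03 in AG636 samples 1 to 4. AG636 2 and AG636 3 were thus below all Vehicle samples, whereas AG636 1 was at the level of Vehicle 2 and AG636 4 lay between Vehicle samples. In complex V the AG636 medians were -0.13, -0.28, -0.27 and -0.08, and AG636 4 lay above Vehicle 2 at -0.10. Vehicle 4, the sample with the lowest erythroid marker sum of 2461 CPM, had the highest median in each complex. Vehicle 2, with the next lowest sum of 3688 CPM, had the lowest Vehicle median in each complex. A relation between erythroid markers and subunit levels was not tested. Without Vehicle 1, 2, 3 or 4 in turn the number of subunits that fell was 6, 11, 4 and 5, and the number of all genes was 536, 609, 467 and 592. Without AG636 1, 2, 3 or 4 in turn it was 10, 11, 12 and 13 subunits and 639, 750, 937 and 937 of all genes.

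Mitochondrially encoded subunits are partners of the nuclear ones in complexes I, III, IV and V. Of 11 tested, 9 fell (81.8%, beside 8.49% of all genes and 15.1% at the higher level) and 0 rose. Log2 fold changes were -2.41 for mt-Cytb and -2.18 for mt-Nd4 (limma-voom adjusted p = 0.00178 and 0.00308). They were -1.36 for mt-Nd2, -0.81 for mt-Nd1 and -0.75 for mt-Nd5. The others that fell were mt-Atp6, mt-Atp8, mt-Co2 and mt-Co3, at -1.47 to -1.21. Of these, mt-Atp6, mt-Co2 and mt-Co3 were under 13 CPM and so below the higher level. The exceptions were mt-Co1, at 3544 ± 331 and 3437 ± 697 CPM (interval of the log2 fold change -0.37 to 0.25), and mt-Nd6, at 16.5 to 23.8 CPM in Vehicle and 19.9 to 58.4 CPM in AG636 samples (0.94, adjusted p = 0.061).

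The balance between the 2 genomes was summed up per complex, as a description with no test. Mitochondrially encoded counts were 4.60 ± 0.467 times the nuclear-encoded ones of complex I in Vehicle samples and 2.97, 2.34, 1.08 and 1.87 times in AG636 samples 1 to 4. In complex III the ratio was 4.52 ± 0.278 in Vehicle and 1.03 ± 0.541 in AG636 samples (SD, n = 4 each), and in complex V it was 0.0371 ± 0.00426 and 0.0176 ± 0.00726. The groups did not overlap in these 3 complexes. In complex IV, where mt-Co1 made up nearly all mitochondrially encoded counts, the ratio was 0.771 ± 0.0920 and 0.820 ± 0.196, with overlapping groups. Ratios between genes of a 3′ library depend on how well each 3′ end is primed, so that only the difference between groups can be read.

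**Figure D4:**
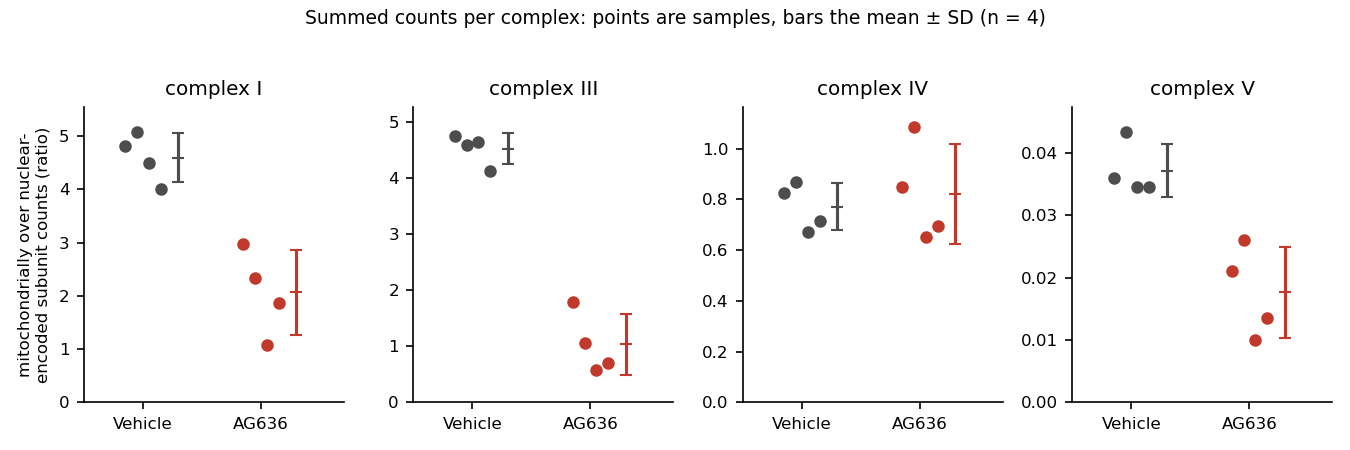
Ratio of the summed counts of mitochondrially encoded to nuclear-encoded subunits (y axis, from 0) for complexes I, III, IV and V, with 1 point per sample and the mean ± SD of each group. All AG636 points lie below all Vehicle points in complexes I, III and V, and the groups overlap in complex IV.

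The nuclear factors that build the complexes were a separate list. Of 52 tested assembly factors 6 fell and 0 rose (11.5%, beside 8.49% of all genes that fell), with a median log2 fold change of -0.09. For complex I these were Ndufaf4, at 86.7, 85.6, 80.0 and 94.8 CPM in Vehicle and 51.9, 58.9, 52.3 and 67.9 CPM in AG636 samples (log2 fold change -0.59, adjusted p = 0.00639), Ndufaf6 (-0.66, adjusted p = 0.012) and Ecsit (-0.66, 0.0276). Uqcc3 of complex III had -0.39 (adjusted p = 0.028). For complex IV, Coa5 was at 140.2 ± 10.3 and 99.3 ± 9.11 CPM (log2 fold change -0.50, limma-voom adjusted p = 0.00763), and Sco2, which delivers copper, had -0.66 (adjusted p = 0.018). None of the 4 factors of complex II and the 3 of complex V passed the threshold. At an unadjusted p under 0.05, 1 of the former was higher (13.7% of all genes) and 1 of the latter lower (17.0% of all genes). With so few genes these counts are not read as a result.

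Other genes of the pathway stood outside the rule. Ndufab1, Cyc1 and Cycs, subunits or carriers of the chain whose symbols fall outside the rule, had log2 fold changes of -0.32, -0.22 and -0.30, and none passed the threshold (adjusted p = 0.12 to 0.336). Of 17 enzymes of the tricarboxylic acid cycle and of pyruvate dehydrogenase 3 fell, Ogdh (-0.36, adjusted p = 0.0114), Idh3b (-0.32, 0.0246) and Idh3a (-0.49, 0.0337), with a list median of -0.10 (8.49% of all genes fell, and 15.1% at the higher level). Among 4 tested enzymes that also pass electrons to ubiquinone, 0 were called, where 8.49% of all genes fell and 5.47% rose. At an unadjusted p under 0.05 there were also 0, beside 17.0% of all genes lower and 13.7% higher. So few genes cannot be told from these shares. Their median log2 fold change was 0.16. Sqor, Etfdh and Gpd2 had values of 0.42, 0.20 and 0.11. The fourth, Dhodh, the target of AG636, was at 31.9, 31.8, 29.6 and 38.8 CPM in Vehicle and 29.2, 30.5, 26.8 and 32.5 CPM in AG636 samples (log2 fold change -0.14, interval -0.40 to 0.11).

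Of 9 tested regulators of respiratory genes 2 fell, where 8.49% of all genes did (15.1% at the higher level). Tfam, which packages mitochondrial DNA and helps to start its transcription, was at 122, 114, 121 and 123 CPM in Vehicle and 98.8, 90.2, 84.3 and 86.4 CPM in AG636 samples (log2 fold change -0.42 ± 0.08, adjusted p = 0.00898). Myc was at 119, 80.7, 108 and 82.0 CPM in Vehicle and 61.4, 60.7, 46.1 and 58.1 CPM in AG636 samples (-0.77 ± 0.15, adjusted p = 0.00867). Neither pair of groups overlapped. For Nrf1, Yy1 and Gabpa, whose motifs were among those searched, the intervals were -0.18 to 0.23, -0.23 to 0.14 and -0.59 to 0.03, all including 0. Factors of the SP1 and E-box motifs, also searched, are not covered by this statement. The coactivator Ppargc1b had -0.49 (adjusted p = 0.0518).

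**Figure D5:**
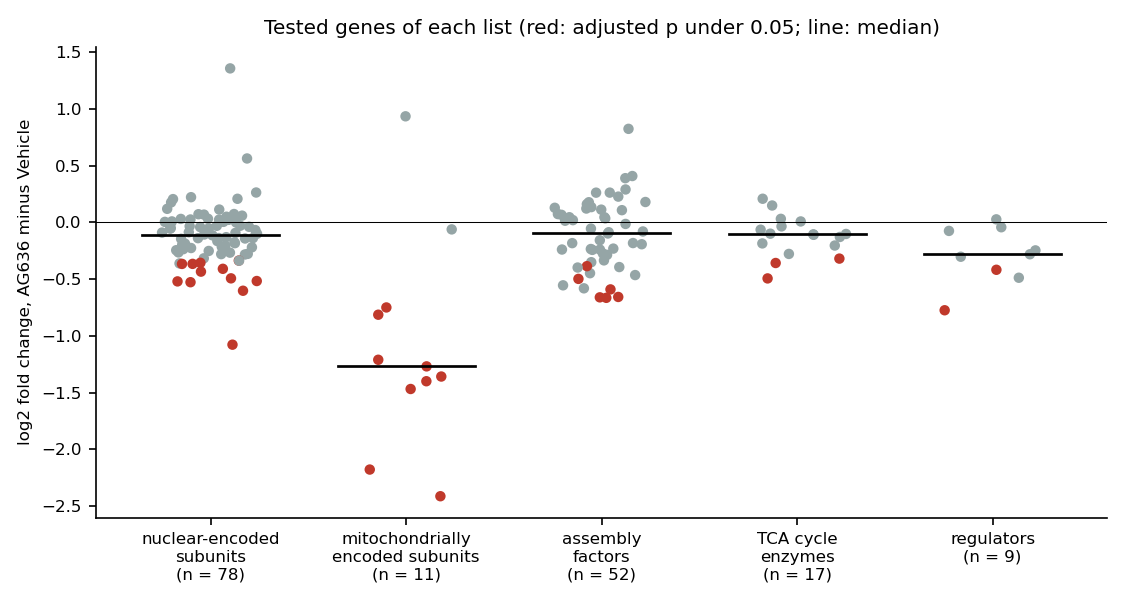
Log2 fold change (AG636 minus Vehicle, y axis) of each tested gene of 5 lists, with the median as a line and genes past the threshold in red. Medians are -0.11 for nuclear-encoded subunits, -1.27 for mitochondrially encoded ones, -0.09 for assembly factors, -0.10 for enzymes of the tricarboxylic acid (TCA) cycle and -0.28 for regulators.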

How the data were processed

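RNA from 8 sorted samples was sequenced from QuantSeq 3′ libraries as 75-base reads. The table holds whole-number counts of reads for each gene, not normalized before deposit. The authors trimmed the reads with cutadapt (1.9.1 in the submitters' processing notes), mapped them to mm10 (GRCm38) with HISAT2 (2.0.4) and counted them with featureCounts of Subread (1.5.0-p3). How strand and reads with several matches were treated is not given in the sources used here, so that counts of genes with near-identical copies or overlapping exons are uncertain. Of the members, 30 share exon sequence with another gene and 26 have a near-identical copy by BLAST (2.17.0), mostly a pseudogene with few counts. Symbols came from a table of gene names, and 12 rows with fitting symbols were left out as not protein-coding.

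Samples were grouped by title. Genes passing filterByExpr (minimum count 10) were fitted together by limma-voom with TMM factors (limma 3.58.1, edgeR 4.0.16, R 4.3.3), with group as the only term, as the study's methods name limma. Tests were two-sided with Benjamini-Hochberg adjustment over all 10911 genes and a threshold of 0.05. Of the 7 untested members none exceeded 5 counts in a library. The script was tested on simulated data. Alternatives were limma-trend, DESeq2 (1.42.0), the quasi-likelihood test of edgeR, sample quality weights, other scalings and filters, a replicate block, left-out samples and a threshold of 0.01.

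The members, the lists and the rule for named genes were chosen with earlier results of these data known. The rule names each member past the threshold, the highest, lowest and most changed uncalled member of each complex, the tissue isoforms, the core subunits, and the called genes of each list. Other members were named after their values were seen, to complete a complex or module. The values of 1 member are not reported here, although counts over members include it.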

Additional observations from a re-analysis of the deposited data

Results flagged for a closer look

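In 5 cases 1 sample of a group lay far from the other 3 by Dixon's criterion, of 86 combinations of a value and a group, where chance gives about 1 in 20, or 4.3. Uqcr11 was at 305.8 CPM in Vehicle 4 beside 252 to 253 CPM in the other Vehicle samples, and Atp5g1 was at 196.9 CPM in the same sample beside 136.7 to 140.0 CPM. Atp5j2 was at 331.4 CPM in Vehicle 2, beside 363.3 to 367.4 CPM. Among AG636 samples, Cox7b was at 216.1 CPM in AG636 2 beside 296.1 to 304.9 CPM, and Ndufs7 was at 97.98 CPM in AG636 3 beside 122.3 to 125.9 CPM.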

How the results depend on the processing

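The number of subunits that fell, 12 in the report, was 12 by edgeR's quasi-likelihood test, by limma-trend, without mitochondrial genes, without a filter and with a replicate block, 13 by DESeq2 (12 of them shared), 15 with sample quality weights, 11 with RLE factors and 11 with at least 10 counts in every sample. It was 7 with library size alone, 5 without Vehicle 4 and AG636 3, 2 at an adjusted p under 0.01, and 4 to 13 when each sample was left out in turn. The number that rose, 0 in the report, was 1 by edgeR (Cox6b2), 1 by DESeq2 (Ndufa7), 2 with library size alone, and 0 to 1 with a sample left out. Cox6b2, also called with library size alone and without AG636 1, passed the main filter through the AG636 samples alone. By complex, leaving out a sample gave 1 to 5 for complex I, 0 to 2 for complex IV and 1 to 5 for complex V. Complex IV had 1 call with RLE factors and with 10 counts in every sample, and 0 with library size alone, where complex V had 2. Without Vehicle 4 and AG636 3, complexes I, IV and V had 2, 0 and 1 calls, and at an adjusted p under 0.01 they had 0, 0 and 0. The median log2 fold change stayed below 0, from -0.15 to -0.04 over all alternatives. Sdhd, Uqcr11, Ndufs6 and Atp5g3 passed the threshold in all 19 other fits, and the number of fits was 8 for Cox7b and 13 to 18 for the remaining 7. The number of all genes that fell was 467 to 937 with a sample left out, in place of 926. Correlations of deviations between same-numbered samples were -0.14, 0.08, 0.25 and 0.16. Whether the replicate numbers pair the samples cannot be decided from these values. The replicate block kept the same 12 calls.

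A total of 11 named genes with a log2 fold change near 0 changed sign, none with an adjusted p below 0.612. With sample quality weights the values were -0.0053 (Ndufa6), -0.035 (Uqcrh), -0.0038 (Cox4i1), 0.0037 (Cox6a1), 0.021 (Ndufs1) and 0.0017 (Ndufs8). With library size alone they were 0.036 (Ndufb4), 0.018 (Cox6a1), 0.031 (Ndufs1) and 0.020 (Ndufs8), and without a filter -0.0016 (Sdha) and -0.0087 (Uqcrh). Without Vehicle 4 and AG636 3 they were 0.086 (Ndufb4), 0.061 (Cox6a1), 0.0025 (Cox7a2), 0.081 (Ndufs1) and 0.062 (Ndufs8). Leaving out each sample in turn gave ranges of -0.021 to 0.069 (Ndufa6), -0.060 to 0.037 (Uqcrh), -0.107 to 0.037 (Cox6a1), -0.086 to 0.037 (Ndufs1), -0.091 to 0.013 (Ndufs8), -0.143 to 0.043 (Ndufb4), -0.040 to 0.056 (Sdha), -0.0084 to 0.072 (Ndufs3) and -0.032 to 0.101 (Ndufv1). The cause of these changes was not tested.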
